A study of Mus musculus with 7 samples.

Results

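The RFX genes encode transcription factors that share a winged-helix DNA-binding domain and bind a motif called the X-box, and Foxj1 encodes a forkhead factor that acts beside them in cells that build cilia. The levels of 7 such genes, Rfx1, Rfx2, Rfx3, Rfx4, Rfx5, Rfx7 and Foxj1, out of the 54532 genes in the deposited table, were followed through eye samples of mice with and without Agbl5. The 7 were taken by gene symbol, and all 7 were in the table. The set was chosen by the FPKM of Rfx2, which was higher in knockout libraries, to ask whether other RFX genes move with it, so the knockout values of Rfx2 are given as a description and were not tested. The label calls all 7 ciliogenic, and Rfx5 and Rfx7 are better known for other work, described with their values.

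RFX1, RFX2 and RFX3 are close relatives that bind the X-box as dimers, and in ciliated cells they switch on genes of intraflagellar transport, the BBSome and the transition zone. FOXJ1 adds the program of motile cilia: axonemal dyneins, radial spokes and tektins. Photoreceptors carry a modified non-motile cilium, the connecting cilium and outer segment, and the product of Agbl5, CCP5, trims glutamate side chains off the tubulin of such axonemes.

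The series held 7 libraries of polyadenylated RNA: 3 labelled knockout, 2 heterozygous and 2 wildtype for Agbl5. The tissue label was eyeball and the extraction protocol named retina. The knockout allele, strain, age and sex of the mice were not given in the sources used here. Nor was it given whether the libraries of a genotype came from separate animals, though sex-linked genes, given below, tell some of them apart. The p-values measure the spread between these libraries, which may be technical in part. Agbl5 itself stood at 9.89 and 8.57 FPKM (fragments per kilobase of gene model, scaled to the depth of the library) in wildtype 1 and 2, at 4.21 and 5.34 FPKM in heterozygous 1 and 2, and at 1.53, 1.73 and 1.26 FPKM in knockout 1, 2 and 3, in the order of the labels. Ost4 on the other strand shares 677 exon bases with Agbl5, and the libraries carry no strand, so some of the reads on Agbl5 may be of Ost4. Between 12244707 and 14339701 reads per library could be recovered from the FPKM values.

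Markers of rods and cones were at or above 1 FPKM in at least 1 library for all 10 and all 7 genes listed. Heterozygous 1 and knockout 1 stood apart in 10 lens genes, whose summed level was 3026 and 4947 FPKM there and between 4.33 and 37.5 FPKM elsewhere. Wildtype 2 and knockout 3 stood apart in Xist, which coats the silenced X chromosome in females, at 181 and 158 FPKM against at most 0.0381 FPKM elsewhere. The summed level of 9 microglia and macrophage markers ran from 19.1 to 22.0 FPKM in the 4 control libraries and from 33.4 to 35.3 FPKM in knockout libraries, and 2 of the 5 that could be tested were called higher in knockout than in all controls (limma), beside 0.465% of tested genes, with 1 of 5 called against wildtype alone and 1 of 5 against heterozygous alone. Summed rod markers ran from 9317 to 10396 FPKM in control libraries and from 8486 to 8655 FPKM in knockout libraries. Of the 10, 6 were lower than all controls without overlap and 1 higher, beside 969 and 1045 of 15472 tested genes. Limma called 0 of them. Summed cone markers ran from 567 to 669 FPKM in control libraries and from 671 to 720 FPKM in knockout libraries. Limma called 1 of the 7 higher than all controls (adjusted p = 0.0013), beside 0.465% of tested genes. That gene was the only 1 of the 7 above 0, and the median difference was -0.08. Summed astrocyte markers ran from 169 to 173 FPKM in controls and from 184 to 206 FPKM in knockout. Against all controls 1 of the 4 tested was called higher, beside 0.465% of tested genes. Of the 4, 2 lay above 0, with a median difference of 0.03 and a lowest of -0.23. Limma called 0 of the 4 against wildtype alone (smallest adjusted p = 0.126) and 0 against heterozygous alone (0.167), beside 0.323% and 0.317% of tested genes. The part of these differences in the results below was not tested, except where a value without the lens-rich libraries is given. In whole tissue, more cells of a type and more RNA per cell cannot be told apart.

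The start of the Rfx2 gene is shown first, since it is the member that differed and its promoter carries the motif of its own family. RefSeq start sites on GRCm38.p6 gave promoter windows, 250 bases before to 50 after the start, for 6 of the 7 members. The X-box was searched on both strands as GTNNCCNGNAAC, GTNNCCNNGNAAC, GTNNCCNNNGNAAC and GTNNCCNNNNGNAAC, where N is any base. These spellings are looser than the textbook consensus. Of the 7 windows of the 6 members, 1 held a match, that of Rfx2, in the longest spelling. That spelling was in 0.731% of all 32851 promoter windows of the same length, and any of the 4 spellings was in 5.25%. The 245 bases before the first exon of Rfx2 lie at chr17:56831014-56831258 on the minus strand, and capitals mark the match at positions -116 to -102 from the start together with a second motif that overlaps it:
Rfx2: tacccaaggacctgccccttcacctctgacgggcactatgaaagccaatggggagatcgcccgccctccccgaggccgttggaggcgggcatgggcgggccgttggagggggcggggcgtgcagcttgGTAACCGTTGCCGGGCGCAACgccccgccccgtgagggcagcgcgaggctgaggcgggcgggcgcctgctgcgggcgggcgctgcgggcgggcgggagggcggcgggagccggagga

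The second motif, GNAAC followed after 1 free base by GTTGCC, sets a pair of X-box arms back to back, and both strands were searched. It was picked after the promoter letters of the members had been read, so its counts are a description. It was found in 25 of 32851 promoter windows (0.0761%), and the windows of Rfx1, Rfx2 and Rfx3 were 3 of the 25. In the windows of Rfx4, Rfx5 and Rfx7 it was not found. The sites are shown in 30 bases each, in the direction of the gene, with the motif in capitals. The Rfx1 site spans the start of the gene (chr8:84066831-84066842), the Rfx2 site lies at positions -122 to -111 (chr17:56831119-56831130) and the Rfx3 site at positions 26 to 37, inside the transcript (chr19:28011130-28011141):
Rfx1: gggtgggtaGCAACAGTTGCCccggtgagg
Rfx2: tgcagcttgGTAACCGTTGCCgggcgcaac
Rfx3: tgagttataGCAACCGTTGCCttgtgaatc
A match is a description of letters and not a measured binding site. Besides Rfx2, 11 genes with it were tested, Rfx1 and Rfx3 among them. Between knockout and all controls limma called 0 of the 11, beside 0.614% of tested genes. Of the 11, 1 had an unadjusted p under 0.05, beside 12.2% of tested genes, and log2 differences ran from -0.14 to 0.30.

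Rfx2 (ENSMUSG00000024206, chromosome 17, 56775897 to 56831013 on the minus strand, 18 merged exons over 7311 bases) was low in every control library and higher in every knockout library. The protein binds the X-box and is known for its part in the cilia of multiciliated cells and in sperm formation. Rfx2 stood at 1.47 and 1.40 FPKM in wildtype 1 and 2. It stood at 1.42 and 1.75 FPKM in heterozygous 1 and 2, and overlapped wildtype. It stood at 5.36, 6.15 and 5.35 FPKM in knockout 1, 2 and 3, so that the lowest knockout library was above the highest control. In reads this was 147 to 167 per control library against 518, 634 and 535 in knockout 1, 2 and 3. No other gene model overlapped Rfx2, so its reads have no second candidate gene in libraries that carry no strand.

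The knockout mean of Rfx2 was 5.62 ± 0.458 FPKM (SD, n = 3), 3.72-fold the control mean of 1.51 ± 0.163 FPKM (SD, n = 4). On the log2(FPKM + 1) scale, which understates the change of a gene at this level, the difference was 1.40 against all controls, 1.44 against wildtype and 1.36 against heterozygous. These are the values the gene was chosen for, and no test is given. The 3 comparisons share the knockout libraries. Among 15472 tested genes, Rfx2 ranked at 37 by the size of its difference from all controls. Without the lens-rich libraries the difference was 1.41, and with any 1 library left out it was between 1.34 and 1.44. On recovered reads, where no pseudocount of 1 damps it, it was 1.90.

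The comparison of heterozygous with wildtype libraries played no part in the choice of Rfx2 and was tested. Rfx2 differed there by 0.09 ± 0.12 (SE; limma, adjusted p = 0.975), with a 95% interval from -0.19 to 0.36. The interval is wide, with 2 libraries a side. No gene of the 15472 was called in this comparison (0%), while 619 (4%) had an unadjusted p under 0.05, and limma-voom on recovered reads called 0 as well. All 6 tested members overlapped between the 2 genotypes, beside 30% of tested genes with no overlap.

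**Figure D1:**
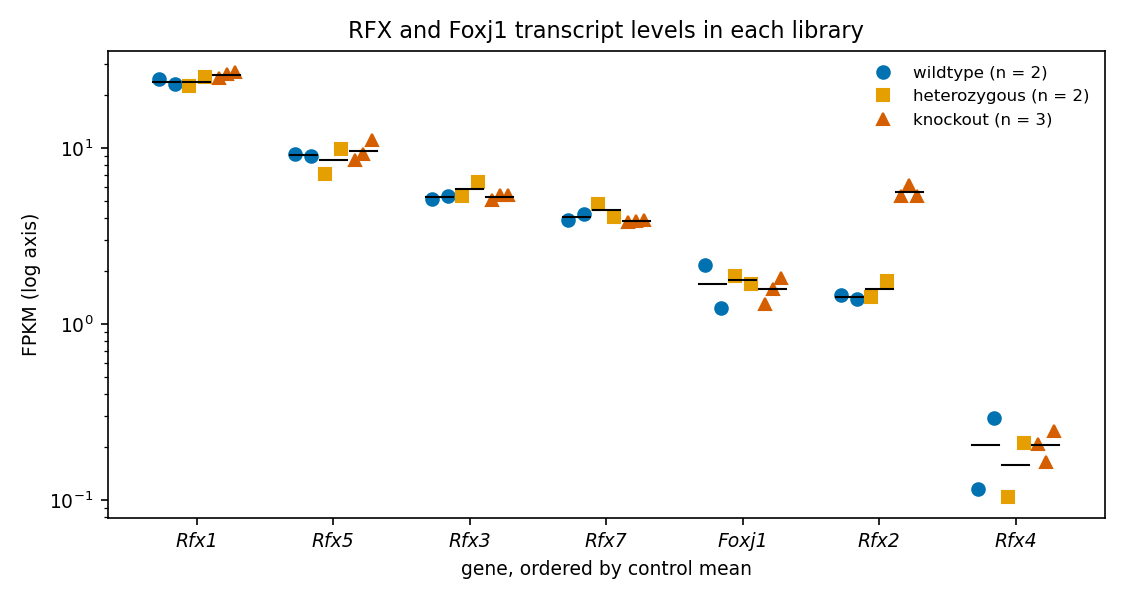
Each point is the FPKM of a gene in a library (log axis), with wildtype (n = 2), heterozygous (n = 2) and knockout (n = 3) side by side and black bars at the group means. Rfx2 is the gene whose knockout points, from 5.35 to 6.15 FPKM, sit clear of all control points, from 1.40 to 1.75 FPKM.

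Rfx2 lies in a gene-dense stretch, and its neighbours were examined after its values were seen. Within 200 kilobases on either side, 18 other genes were tested. Between knockout and all controls limma called 0 of the 18, beside 0.614% of tested genes (smallest adjusted p = 0.295). Of the 18, 2 had an unadjusted p under 0.05, beside 12.2% of tested genes. Log2 differences ran from -0.08 to 0.38, with 17 of 18 above 0, beside 7863 of 15472 tested genes. Lens-rich heterozygous 1 was the lowest library for some of them, such as Safb2 (19.6 FPKM, elsewhere 26.4 to 29.1 FPKM) and Rpl36 (112 FPKM, elsewhere 151 to 194 FPKM). It was not the lowest for others, such as Dus3l, and its part in these differences was not tested. Mllt1, the nearest tested gene on the upstream side but for a clone-named model, stood at 15.3, 14.5, 15.4 and 15.6 FPKM in the control libraries and at 15.2, 16.5 and 15.7 FPKM in knockout libraries.

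Of the 5 other members that were tested, limma called 0 between knockout and all controls, where it called 0.614% of all tested genes, and none had an unadjusted p under 0.05, beside 12.2% of tested genes. Rfx4 was below the filter of a mean of 1 FPKM over the 7 libraries, so 6 of the 7 members were tested. Against wildtype alone 0.323% of tested genes were called and 7.5% had an unadjusted p under 0.05, and the 5 other members had 0 of either. Against heterozygous alone these shares were 0.317% and 12%, and the 5 other members again had 0 of either. Limma-voom on recovered reads also called 0 of them in every comparison. Knockout and control libraries overlapped in all 5, beside 13% of tested genes with no overlap. Against wildtype 1 of the 5 (Rfx1, higher) did not overlap, beside 28.2% of tested genes in either direction and 13.5% higher. Against heterozygous 1 of the 5 (Rfx7, lower) did not overlap, beside 29.8% in either direction and 14.5% lower. These counts are near the background.

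Rfx1, which encodes the most widely expressed factor of the family, was the most abundant member. It stood at 24.6 and 23.0 FPKM in wildtype 1 and 2, at 22.4 and 25.4 FPKM in heterozygous 1 and 2, and at 25.1, 26.5 and 27.1 FPKM in knockout 1, 2 and 3. Knockout libraries were at the upper end and did not overlap wildtype, but heterozygous 2 lay above knockout 1. The difference from all controls was 0.13 ± 0.06 (SE; limma, adjusted p = 0.42), with a 95% interval from -0.004 to 0.27. Rescaled to TPM, the difference from all controls was 0.01, with the median gene at -0.12. The difference from wildtype was then -0.02, with the median gene at -0.16. The small overlap of 42 exon bases with an antisense gene on the other strand can add reads to Rfx1.

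Rfx3, the third member of the X-box group and the best known regulator of nodal and ependymal cilia, had its highest value outside the knockout. It stood at 5.16 and 5.38 FPKM in wildtype 1 and 2, at 5.33 and 6.40 FPKM in heterozygous 1 and 2, and at 5.08, 5.40 and 5.41 FPKM in knockout 1, 2 and 3. Heterozygous 2 was the highest library and knockout 1 the lowest, and knockout 2 and 3 lay between heterozygous 2 and the other controls. The difference from all controls was -0.06 ± 0.08 (SE; limma, adjusted p = 0.801), with a 95% interval from -0.24 to 0.12.

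Rfx5 encodes the DNA-binding subunit of the complex that opens class II histocompatibility promoters, a role outside cilia. It stood at 9.24 and 9.05 FPKM in wildtype 1 and 2, at 7.12 and 9.94 FPKM in heterozygous 1 and 2, and at 8.61, 9.30 and 11.1 FPKM in knockout 1, 2 and 3. The lowest library was the lens-rich heterozygous 1 and the highest knockout 3, with overlap between all genotypes. The difference from all controls was 0.12 ± 0.12 (SE; limma, adjusted p = 0.717), with a 95% interval from -0.16 to 0.40. An antisense gene shares 1471 exon bases with Rfx5, so its value is uncertain without strand.

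Rfx7, which encodes a factor of growth-restraining genes, had its highest value in heterozygous 1. It stood at 3.92 and 4.25 FPKM in wildtype 1 and 2, at 4.80 and 4.05 FPKM in heterozygous 1 and 2, and at 3.79, 3.85 and 3.92 FPKM in knockout 1, 2 and 3. The knockout libraries lay below both heterozygous libraries and overlapped wildtype. The difference from all controls was -0.11 ± 0.07 (SE; limma, adjusted p = 0.578), with a 95% interval from -0.28 to 0.06. A pair of antisense genes share 417 and 597 exon bases with it.

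Foxj1, the forkhead gene of motile cilia, was near the filter and varied more between libraries of a genotype than between genotypes. It stood at 2.16 and 1.24 FPKM in wildtype 1 and 2, at 1.89 and 1.69 FPKM in heterozygous 1 and 2, and at 1.30, 1.59 and 1.84 FPKM in knockout 1, 2 and 3. Both the highest and the lowest library were wildtype. The difference from all controls was -0.09 ± 0.14 (SE; limma, adjusted p = 0.841), with a 95% interval from -0.42 to 0.25, and it was 0.02 without the lens-rich libraries. Only 45 to 83 reads per library lay on the gene.

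Rfx4, an RFX gene of brain patterning and astrocyte-lineage cells, was barely detected. It stood at 0.116 and 0.295 FPKM in wildtype 1 and 2, at 0.105 and 0.211 FPKM in heterozygous 1 and 2, and at 0.208, 0.165 and 0.248 FPKM in knockout 1, 2 and 3, from 7 to 21 reads each. With no filter its difference from all controls was 0.03 (limma, adjusted p = 0.9). At so few reads, and with a pseudocount of 1, a change in this gene could be missed. The size of change that could be detected was not worked out. Of the other RFX genes, Rfx6, a factor of pancreatic islets, was listed at 0 in all 7 libraries, and Rfx8 held 1 to 4 reads per library.

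**Figure D2:**
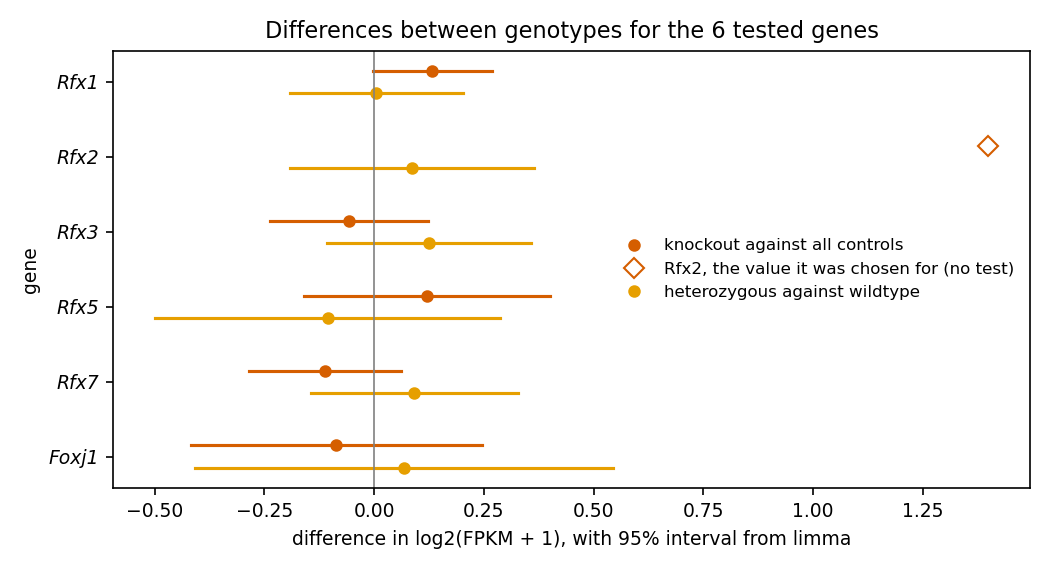
Points are differences in log2(FPKM + 1) for the 6 tested members and bars are 95% intervals from limma, for knockout (n = 3) against all controls (n = 4) and heterozygous (n = 2) against wildtype (n = 2). Every interval drawn includes 0, the highest upper bound of the 5 other members against controls is 0.40, and the open diamond marks Rfx2 at 1.40 without a test.

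The order of the members by mean FPKM was the same in the wildtype and heterozygous groups: Rfx1, Rfx5, Rfx3, Rfx7, Foxj1, Rfx2, Rfx4. Single libraries could depart from it, with Rfx2 above Foxj1 in wildtype 2 (1.40 and 1.24 FPKM) and heterozygous 2 (1.75 and 1.69 FPKM). By the knockout means Rfx2 moved from rank 6 to rank 3, past Foxj1, Rfx7 and Rfx3. Its knockout range of 5.35 to 6.15 FPKM overlapped that of Rfx3, 5.08 to 5.41 FPKM, so these neighbours in the order do not differ beyond their spread. In control libraries the ranges of Foxj1 and Rfx2, 1.24 to 2.16 and 1.40 to 1.75 FPKM, overlapped as well. Such orders depend on the merged exon models by which FPKM is scaled, from 2623 bases for Foxj1 to 15302 bases for Rfx7.

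Rfx1, Rfx2 and Rfx3 bind the same motif and can dimerise with each other, so their pool was added up as a description. The sum of the 3 genes ran from 29.2 to 33.5 FPKM in control libraries and from 35.5 to 38.0 FPKM in knockout libraries. Rfx2 made up 4.71% and 4.69% of it in wildtype 1 and 2, 4.88% and 5.22% in heterozygous 1 and 2, and 15.1%, 16.2% and 14.1% in knockout 1, 2 and 3. The share of Rfx3 was 18.0% ± 1.05 in controls (SD, n = 4) and 14.3% ± 0.0523 in knockout (SD, n = 3). Shares of a sum depend on each other, so a rise of Rfx2 lowers that of Rfx3. Rfx3 itself stood at 5.57 ± 0.559 FPKM in controls and 5.30 ± 0.188 FPKM in knockout. Per Rfx3 transcript, Rfx2 went from 0.271 ± 0.0106 in controls to 1.06 ± 0.0749 in knockout. Rfx1 remained the largest part throughout, with at least 69.6% in each library.

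**Figure D3:**
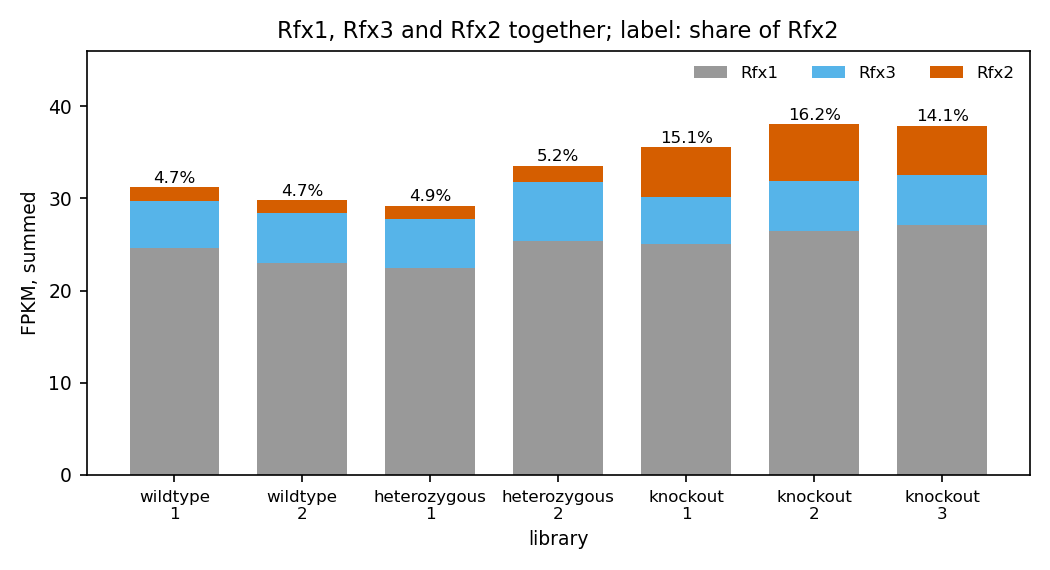
Stacked bars give the FPKM of Rfx1, Rfx3 and Rfx2 in each library, and the label above a bar is the share of Rfx2 in the sum. The share is between 4.69% and 5.22% in the 4 control libraries and between 14.1% and 16.2% in the 3 knockout libraries.

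The partners of RFX5 were described next, since the factor acts only in a complex. Of 8 listed partners and coactivators 6 were tested, and against all controls limma called 0, beside 0.614% of tested genes. Of the 6, 1 (Rfxank) had an unadjusted p under 0.05, beside 12.2% of tested genes. The median difference was 0.05, beside 0.00 over all tested genes. Rfxank, a subunit of the complex with ankyrin repeats, stood at 2.94 to 3.29 FPKM in the 4 controls and at 3.91, 3.63 and 3.78 FPKM in knockout 1, 2 and 3. It did not overlap but did not pass (0.23 ± 0.07, SE; limma, adjusted p = 0.25), and Nr2c2ap shares 1341 exon bases with it. Rfxap, the third subunit, was at 8.40 ± 0.676 FPKM in controls (n = 4) and 9.10 ± 0.197 in knockout (n = 3; 0.11 ± 0.07, limma, adjusted p = 0.566). Nfyb, a subunit of the CCAAT factor that binds beside the complex, differed by -0.09 ± 0.05 (limma, adjusted p = 0.536). Ciita, the class II coactivator, was below the filter at 0.299 to 0.434 FPKM in controls and 0.499 to 0.572 FPKM in knockout, without overlap. Dexi shares 329 exon bases with Ciita. Nlrc5, another listed coactivator, was also below the filter and was not tested. It stood at 0.295 ± 0.129 FPKM in controls (SD, n = 4) and 0.565 ± 0.0531 FPKM in knockout (SD, n = 3), without overlap.

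Among the histocompatibility genes that RFX5 and its coactivators are known to switch on, a pair of class I genes rose and the class II genes were mostly too low to test. Of 12 listed genes 5 were tested and 2 rose against all controls, beside 0.465% of tested genes, with a median of 0.47 over the 5. H2-K1 went from 10.6 ± 0.693 FPKM in controls (n = 4) to 17.0 ± 0.908 in knockout (n = 3; 0.64 ± 0.07, limma, adjusted p = 0.0055). H2-D1 went from 14.6 ± 0.620 to 20.5 ± 0.796 FPKM (0.47 ± 0.05, limma, adjusted p = 0.0113). Against wildtype alone H2-K1 passed (limma, adjusted p = 0.0201) and H2-D1 did not (0.0738). Both passed against heterozygous alone (limma, adjusted p = 0.0401 and 0.0278), but in only 2 of 13 and 4 of 14 alternative settings. Of the other tested genes, B2m differed from all controls by 0.47 ± 0.19 (limma, adjusted p = 0.387) and H2-DMa by -0.14 ± 0.12 (limma, adjusted p = 0.674). With TPM neither passed (limma, adjusted p = 0.0953 for H2-K1 and 0.255 for H2-D1). Neither passed with the replicate number as a block (limma, adjusted p = 0.0911 and 0.141), though the numbers are not stated to pair the libraries. H2-D1 also missed the threshold without knockout 2 (limma, adjusted p = 0.0734), without knockout 3 (0.0623) and without the lens-rich libraries (0.0861), and close class I relatives can share reads. Cd74, the invariant chain that travels with class II, stood at 0.679 to 1.36 FPKM in controls and 1.11 to 1.45 FPKM in knockout without passing (limma, adjusted p = 0.686). The summed level of 9 lymphoid and dendritic markers was 2.15 to 2.63 FPKM over all libraries, with 1 listed at 0 throughout. The microglia markers given above were higher in the same libraries as H2-K1 and H2-D1, and their part in it was not tested.

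Genes of cilium assembly, the class that RFX factors are known to switch on, gave no call. All 36 listed genes of intraflagellar transport, dynein 2, the BBSome and the transition zone were tested. Against all controls limma called 0 of the 36, beside 0.614% of tested genes. An unadjusted p under 0.05 was found for 6 of the 36, beside 12.2% of tested genes, and the median difference was -0.03. Their summed level was 483 to 525 FPKM in control libraries and 487 to 494 FPKM in knockout libraries. Nphp4, a transition zone gene, stood at 9.71 ± 1.59 FPKM in controls (n = 4) and 12.5 ± 0.670 in knockout (n = 3; 0.35 ± 0.12, limma, adjusted p = 0.32). Ift74, of the transport particle, was at 11.1 ± 0.785 and 9.43 ± 0.537 FPKM (-0.21 ± 0.07, limma, adjusted p = 0.302), and Tmem216, another transition zone gene, differed by -0.24 ± 0.09 (limma, adjusted p = 0.367). Of these 3, 1 lay above 0 and the others below.

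The X-box letters were then counted in the promoters of these lists. At least 1 of the 4 spellings was found in 10 of the 30 genes of the assembly list with a promoter window (33.3%), in 13 of 29 genes of the motile list (44.8%) and in 5.94% of all 27025 genes. In the assembly list the 10 genes with a match (Bbs1, Bbs4, Bbs7, Ift57, Ift74, Mks1, Nphp4, Tctn1, Tctn2 and Tmem216) had a median difference of -0.00 between knockout and all controls, and the 20 without had -0.05. Over all tested genes with a promoter window the medians were 0.01 for 713 genes with a match and 0.00 for 9515 without.

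Motile cilium genes were scarce in this tissue. Of 39 listed, 37 were matched by symbol, 24 were below 1 FPKM in every library and 9 were tested. Against all controls limma called 0 of the 9 and 0 had an unadjusted p under 0.05, beside 0.614% and 12.2% of tested genes. The median difference of the 9 was -0.01. Tppp3, a tubulin polymerisation protein gene, was the most abundant of those named here, at 33.6 ± 2.46 FPKM in controls (n = 4) and 38.1 ± 4.80 in knockout (n = 3; 0.17 ± 0.09, limma, adjusted p = 0.506). Rsph9, a radial spoke gene, was at 1.67 ± 0.274 and 2.07 ± 0.156 FPKM (0.21 ± 0.11, limma, adjusted p = 0.48), and Ccdc39, an axonemal ruler gene, differed by -0.14 ± 0.07 (limma, adjusted p = 0.459). Of 18 regulators and centriole genes of multiciliated cells 8 were tested and 0 were called, beside 0.614% of tested genes. Of the 8, 2 had an unadjusted p under 0.05, beside 12.2% of tested genes, and the median difference was -0.05. Tfdp1, a partner of E2F factors, was at 18.5 ± 1.32 and 21.2 ± 0.95 FPKM (0.19 ± 0.07, limma, adjusted p = 0.32). Cep63, a centriole duplication gene, was at 6.60 ± 0.260 and 5.78 ± 0.222 FPKM (-0.16 ± 0.06, limma, adjusted p = 0.328), and E2f4, an E2F factor of centriole amplification, differed by 0.14 ± 0.08 (limma, adjusted p = 0.547).

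Genes reported as targets of RFX7 gave no call against all controls: all 14 were tested and 0 passed, beside 0.614% of tested genes. Of the 14, 3 had an unadjusted p under 0.05, beside 12.2% of tested genes, and the median difference was 0.05. Junb, an AP-1 subunit gene, stood at 11.6, 11.1, 8.49 and 8.79 FPKM in wildtype 1 and 2 and heterozygous 1 and 2, and at 19.6, 18.8 and 14.4 FPKM in knockout 1, 2 and 3. It did not overlap and did not pass with limma (0.76 ± 0.14, SE, adjusted p = 0.0843), and limma-voom on recovered reads called it (0.79, adjusted p = 0.0178). Ddit4, a stress-induced inhibitor of mTOR signalling, differed by 0.21 ± 0.08 (limma, adjusted p = 0.37), and Pik3r3, a regulatory subunit of phosphoinositide kinase, by -0.13 ± 0.05 (limma, adjusted p = 0.399).

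**Figure D4:**
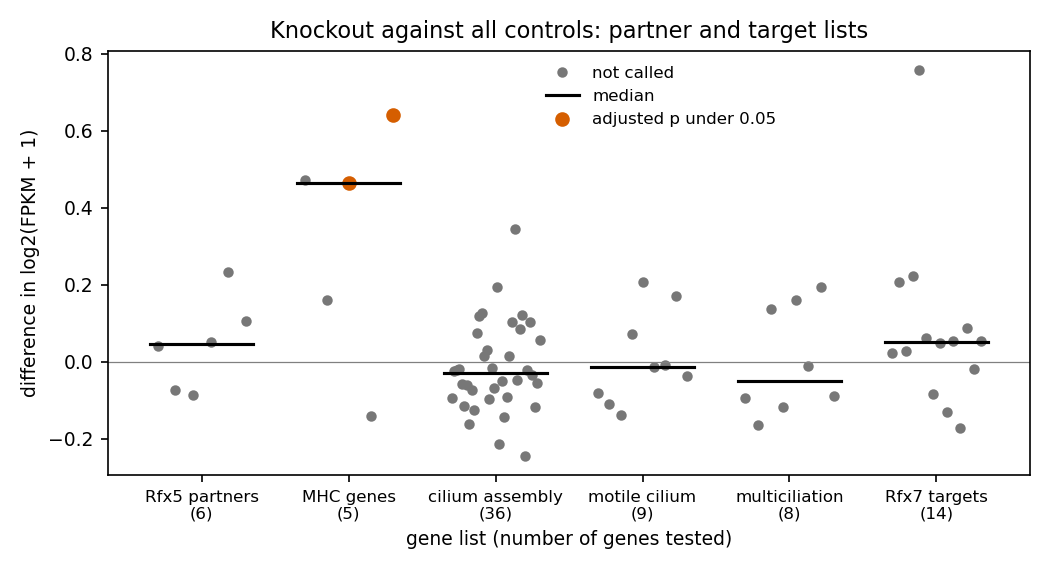
Each point is a tested gene of a list, placed by its difference in log2(FPKM + 1) between knockout (n = 3) and all controls (n = 4), with black bars at the list medians and calls of limma in orange. The 2 called genes are H2-K1 at 0.64 and H2-D1 at 0.47, and the grey point at 0.76 is Junb.

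The genes whose profile over the 7 libraries was most like that of Rfx2 came from outside the family. By Pearson correlation of log2(FPKM + 1), the 6 closest protein-coding genes were Zfyve28 (r = 0.9994), Lrrc2 (0.9976), Cerkl (0.9951), Agtpbp1 (0.9935), Stat3 (0.9922) and Tnnt2 (0.9911). These correlations describe 7 libraries of 3 genotypes and mostly restate the gap between knockout and control. Zfyve28, a FYVE-domain gene of endosomal receptor traffic, stood at 19.2 to 20.6 FPKM in the 4 controls and at 31.8, 33.4 and 32.2 FPKM in knockout 1, 2 and 3. Cerkl, a retinal gene related to ceramide kinase, stood at 6.98 to 7.26 FPKM in controls and at 12.7, 12.5 and 12.3 FPKM in knockout 1, 2 and 3. Agtpbp1, which encodes the deglutamylase CCP1, stood at 11.4 to 11.8 FPKM in controls and at 21.5, 22.8 and 20.4 FPKM in knockout 1, 2 and 3. In each of these genes the lowest knockout library lay above the highest control, as the choice by likeness to Rfx2 favours, and no test is given.

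Within the family, the correlation with Rfx2 was 0.78 for Rfx1, 0.39 for Rfx5, -0.24 for Rfx3, -0.24 for Foxj1 and -0.65 for Rfx7 (n = 7 libraries). Even for Rfx1, 764 of 15471 other tested genes were closer to Rfx2, and for Rfx3 10143 were.

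**Figure D5:**
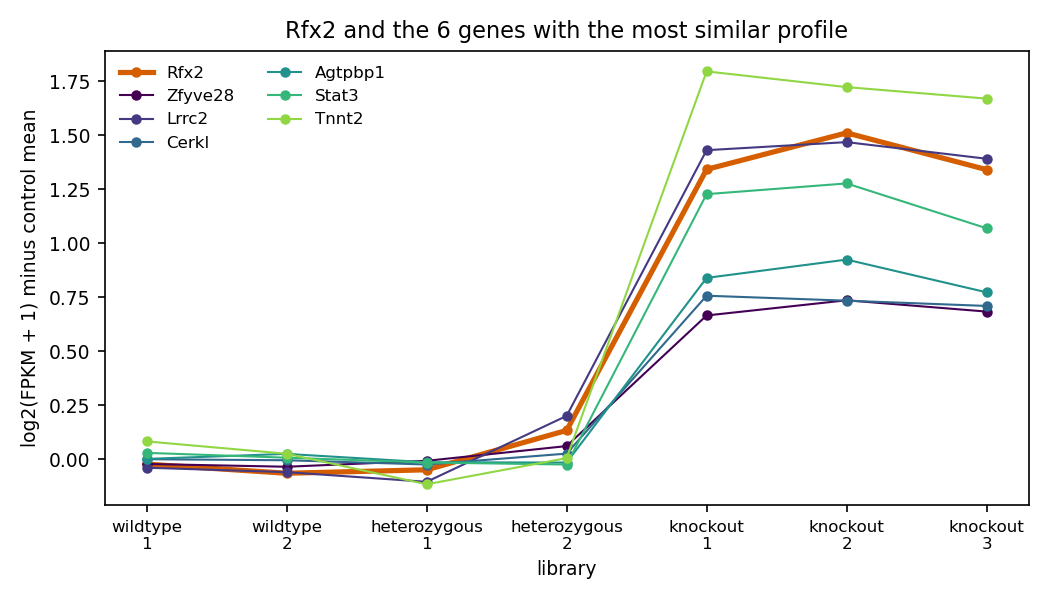
Lines join the values of a gene over the 7 libraries, as log2(FPKM + 1) minus its mean in the 4 control libraries, for Rfx2 (thick line) and the 6 genes most like it. All 7 stay near 0 in controls and stand higher in all 3 knockout libraries, with Rfx2 at a mean of 1.40 there.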

How the data were processed

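Polyadenylated RNA was made into 7 mouse eye libraries, without strand information (NEBNext Ultra). The table deposited by the authors held FPKM per gene and library. Builds mm10 and GRCm38 and the tools DESeq, HTSeq, Bowtie2 2.0.6 and TopHat2 2.0.9 are named per the submitters' processing notes; their settings and the annotation release are not given in the sources used here. Gene models came from GENCODE M21 (GRCm38), in which 54495 of 54532 identifiers were found. With those exon lengths 96.8% of values above 0 were whole reads within a tolerance of 0.01, and sums of recovered reads per library ran from 12244707 to 14339701.

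The 15472 genes whose mean FPKM reached 1 were tested on log2(FPKM + 1) with limma 3.58.1 in R 4.3.3, with a mean-variance trend and Benjamini-Hochberg adjustment over all of them (threshold 0.05). A fit of 3 genotypes (4 residual degrees of freedom) and a fit of knockout against all controls (5) were used, and the script was tested on simulated data. Means carry the SD over libraries, log2 differences their SE.

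The members and gene lists were chosen with earlier results of these data known. The genes named were all members, Rfx6, Rfx8, Rfxap, Rfxank and Ciita, called members of each list or else the 3 with the smallest p, and the 6 genes most correlated with Rfx2. Mllt1, Safb2, Rpl36, Dus3l, Cd74, B2m, H2-DMa and Nlrc5 were added after values were seen. Promoter sequences are RefSeq's on GRCm38.p6.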

Additional observations from a re-analysis of the deposited data

How the results depend on the processing

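Each result was recomputed in 14 alternatives: a pseudocount of 0.1, a filter at a mean of 0.3 FPKM or none, TPM, limma-voom on recovered reads, a replicate block, no lens-rich libraries, and each library left out. The 21 tested results of the members gave 294 values and 0 calls (smallest adjusted p = 0.221). The Rfx2 difference from all controls stayed between 1.34 and 1.90.

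Over all genes, counts of calls moved as follows. For knockout against all controls they were 148 with voom, 63 on TPM and 48 without the lens-rich libraries, from 95. For knockout against wildtype they were 77, 28 and 3, from 50. For knockout against heterozygous they were 77 with voom and 0 without the lens-rich libraries (1313 at an unadjusted p under 0.05), from 49. For heterozygous against wildtype they were 19 with no filter. With 1 library left out they ran from 45 to 90, from 5 to 53, from 14 to 40 and from 0 to 3 in that order. With the replicate block they were 38, 3, 0 and 0 (1449 and 541 at an unadjusted p under 0.05 in the last 2). The numbers are not stated to pair the libraries, and the correlation of same-numbered deviations was -0.02 to 0.43. Rescaling to TPM moved the median gene by -0.12 against all controls. With no filter, 63.6% of calls against wildtype and 71.7% against heterozygous were higher in knockout, from 82% and 85.7%.

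Members that were never called, and Rfxank of the RFX5 complex, changed sign as follows. Against wildtype, knockout differences on TPM were -0.02 for Rfx1, -0.15 for Rfx3 and -0.09 for Rfx5. With the replicate block they were -0.01 for Rfx3 and -0.03 for Rfx5. On TPM Rfx1 was at -0.07 for heterozygous against wildtype. Without the lens-rich libraries Foxj1 was at 0.03 against wildtype, 0.01 against heterozygous and 0.02 against all controls, and, for heterozygous against wildtype, Rfx5 was at 0.11 and Rfx7 at -0.01. With 1 library left out, knockout against wildtype ran from -0.02 to 0.03 for Rfx3, -0.03 to 0.14 for Rfx5 and -0.30 to 0.20 for Foxj1, Rfx5 against heterozygous from -0.04 to 0.39, and Rfx3 against all controls from -0.09 to 0.00. Heterozygous against wildtype ran from -0.08 to 0.09 for Rfx1, -0.01 to 0.18 for Rfx2, -0.32 to 0.11 for Rfx5, -0.01 to 0.19 for Rfx7, -0.18 to 0.32 for Foxj1 and -0.10 to 0.02 for Rfxank. The cause was not tested. H2-K1 was called against all controls in 11 of 13 alternatives and H2-D1 in 9 of 14. With the replicate block neither passed (limma, adjusted p = 0.0911 and 0.141). The values of Rfx4, Rfx8 and Foxj1 rest on few reads.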
